A study of Mus musculus with 110 samples.

Results

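The amino acid transporters described here are 10 genes of the 56884 in the count tables. They were chosen by name for what they carry, with earlier results of these data known, and comprise Slc7a11, Slc7a5, Slc3a2, Slc7a1, Slc7a2, Slc38a2, Slc38a4, Slc1a4, Slc1a5 and Slc6a9. All 10 had enough counts to be tested in liver, interscapular brown fat (iBAT), inguinal white fat (iWAT) and epididymal white fat (eWAT). In liver, Slc7a11 passed the filter on low counts through the groups on the restricted diet, since the others held 5 of its counts between them. In iBAT it passed that filter through the cold groups, since Ctrl_RT and MetR_RT held 4 counts each.

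Amino acids cross the plasma membrane through carriers of the solute carrier families, and each tissue combines a few of them. Slc3a2 encodes a heavy chain that brings light chains to the cell surface, among them the cystine/glutamate exchanger Slc7a11 (xCT) and Slc7a5, an exchanger of large neutral amino acids including methionine. Slc7a1 and Slc7a2 carry cationic amino acids such as arginine and lysine, Slc38a2 and Slc38a4 are sodium-coupled carriers of small neutral amino acids, Slc1a4 and Slc1a5 exchange alanine, serine, cysteine and, for Slc1a5, glutamine, and Slc6a9 takes up glycine. Several of these genes are known targets of ATF4, the transcription factor that cells make when an amino acid is scarce, and Slc7a11 is also a known target of NRF2, which responds to oxidative stress.

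The series crossed diet with temperature in 28 wild-type male C57BL/6N mice from Taconic, housed alone during the experiment and 16 weeks old at its end. Ctrl_RT mice ate a control diet with 0.86% methionine for 7 days at 22 °C, and MetR_RT mice a diet with 0.12% methionine under the same conditions. Ctrl_CE and MetR_CE mice ate these diets for 7 days and then spent 24 h at 4 °C. The paper describes this as an additional day, so cold cannot be told apart from a longer experiment. Both diets lacked cysteine, so the control mice were also without it, and the methionine content of the control diet is the one in the sample records, from which the text of the paper differs slightly. The comparisons ask how restriction, cold and their combination change gene expression in each tissue.

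Libraries of poly(A) RNA from 7 mice were given in every group except Ctrl_RT of iBAT and MetR_CE of iWAT, with 6 each. Of the 7 libraries each of Ctrl_CE in iBAT and of Ctrl_RT and MetR_RT in eWAT, 1, 3 and 1 were left out, so that 6, 4 and 6 were used. The study also set aside these numbers of libraries, and which ones they were was inferred from its mean counts. Depth was lowest in liver, where a library held 6987895 to 33444374 counts. The iBAT libraries held 12672686 to 31232349 counts, those of iWAT 16607493 to 33141066, and those of eWAT 22021114 to 33372110. Tissue markers matched the labels: summed hepatocyte markers reached at least 51400 CPM (counts scaled to library size) in every liver library, summed brown adipocyte markers at least 8420 CPM in every iBAT library, and summed white adipocyte markers at least 16900 CPM in iWAT and 23600 CPM in eWAT. White adipocyte markers do not tell the depots apart, since their sum was 11000 to 22900 CPM in iBAT. The brown adipocyte sum reached 7630 CPM in MetR_CE of iWAT. Other cells were also seen. Summed skeletal muscle markers ran from 0.578 to 1560 CPM over the iBAT libraries and from 1.88 to 19600 CPM over the iWAT libraries, and summed epididymal epithelium markers reached 1350 CPM in MetR_RT replicate 2 of eWAT, where the median of that group was 0.486 CPM. In iBAT, 3 libraries (MetR_RT replicate 1, Ctrl_CE replicate 1 and MetR_CE replicate 1) carried a treatment label that went against their title, and they were placed by title. Their library names followed the titles, and the same mice carried no such conflict in the other tissues. Without these 3 libraries 8, 0 and 8 of the 10 transporters passed the test in Ctrl_CE, MetR_RT and MetR_CE against Ctrl_RT, the same numbers as with them, and with the groups taken from the treatment label 7, 0 and 5 passed. In bulk tissue, fewer cells of a type and less RNA per cell cannot be told apart.

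At Ctrl_RT, the tissues used different members. Divided by the length of each gene's exons, liver had most of Slc38a4, with 231 ± 37.5 CPM per kb (SD, n = 7), followed by Slc7a2 with 37.8 ± 7.79 CPM per kb. In all 3 fat depots the glutamine carrier Slc1a5 stood first, with 470 ± 93.7 CPM per kb in eWAT (n = 4), 347 ± 63.7 in iWAT (n = 7) and 193 ± 33.8 in iBAT (n = 6). Slc3a2 came second in each depot, at 18.8 to 27.3 CPM per kb, and Slc7a11 was last in all 4 tissues, at 0.00203 CPM per kb in iBAT to 0.0891 CPM per kb in iWAT.

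**Figure D1:**
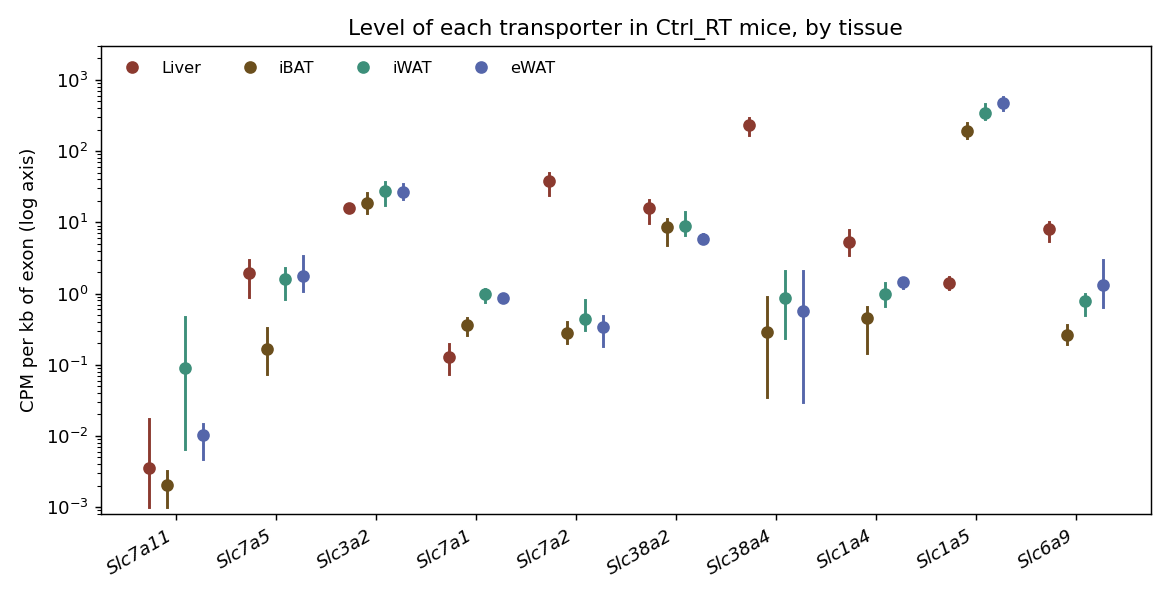
Level of each transporter at Ctrl_RT in the 4 tissues, in CPM (scaled over all tissues) per kb of exon, on a log axis with its floor at 0.001. Points are the means of 4 to 7 libraries and lines run from the lowest to the highest library, cut at the end of the axis where a library had no count. Slc38a4 and Slc7a2 were highest in liver, and Slc1a5 was high in the 3 fat depots and low in liver.

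For each gene, the tissues were then put in order by CPM scaled over all tissues, and neighbours were tested with edgeR's quasi-likelihood test, with p-values adjusted by Benjamini and Hochberg over 19993 genes. Between tissues most genes differ, namely 71.3% of them between liver and iWAT, 69.3% between liver and iBAT, 69.1% between liver and eWAT, 61.8% between iBAT and iWAT, 61.3% between iBAT and eWAT and 31.6% between iWAT and eWAT. Liver and eWAT were counted in tables of their own and iBAT and iWAT in 1 table. Slc38a4 was at 983 ± 160 CPM (SD) in liver and at 3.7, 2.4 and 1.23 CPM in iWAT, eWAT and iBAT, and only the step from liver to iWAT passed (log2 difference 8.03, adjusted p = 7.13e-18). Slc7a2 had the same order of tissues with 345 ± 71.2 CPM in liver and 4.06, 3.09 and 2.51 CPM in iWAT, eWAT and iBAT, where again the step from liver to the next tissue passed (6.40, adjusted p = 1.54e-36) and the others did not.

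Liver also led for Slc38a2 (141 CPM), Slc1a4 (21 CPM) and Slc6a9 (42 CPM). For Slc1a4 and Slc6a9 every step of the order liver, eWAT, iWAT, iBAT passed, down to 1.77 CPM and 1.35 CPM in iBAT. For Slc38a2 the order was liver, iWAT at 79.3 CPM, iBAT at 76.9 CPM and eWAT at 51.6 CPM, and the step from iWAT to iBAT did not pass (adjusted p = 0.851).

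Slc1a5 ran the other way, with 1960 ± 391 CPM in eWAT, 1450 CPM in iWAT, 807 ± 141 CPM in iBAT and 5.94 ± 0.856 CPM in liver. The step from eWAT to iWAT missed the threshold (adjusted p = 0.0524), and the step from iBAT to liver was 7.08 on the log2 scale (adjusted p = 1.78e-52). Slc7a1 was at 11.3 CPM in iWAT and 10.1 CPM in eWAT, which did not differ beyond their spread, then at 4.15 CPM in iBAT and 1.49 CPM in liver, and both of these steps passed.

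The heavy chain Slc3a2 varied least, from 96.2 CPM in iWAT and 95.4 CPM in eWAT to 66.3 CPM in iBAT and 56.7 CPM in liver, and of these steps only that from eWAT to iBAT passed (0.53, adjusted p = 0.00169). Its light chain Slc7a5 was at 7.15 CPM in liver, 6.49 CPM in eWAT and 6.01 CPM in iWAT, with no step passing, and at 0.618 CPM in iBAT (step of 3.28, adjusted p = 4.13e-14). Slc7a11 averaged 1.24 CPM in iWAT, 0.142 CPM in eWAT, 0.0493 CPM in liver and 0.0282 CPM in iBAT. The iWAT mean rested on replicate 7, which stood at 6.45 CPM on this scale, and the other 6 libraries held 2 to 13 counts each. Without it the step from iWAT to eWAT was 1.3 and did not pass (adjusted p = 0.195).

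Changes within a tissue were counted where the adjusted p was below 0.05 and the fold change at least 1.5, and a gene is said to have risen or fallen only then. Log2 fold changes are from edgeR's quasi-likelihood test with p-values adjusted by Benjamini and Hochberg over all genes of the tissue. The comparisons with Ctrl_RT share its libraries and are not independent of each other.

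**Figure D2:**
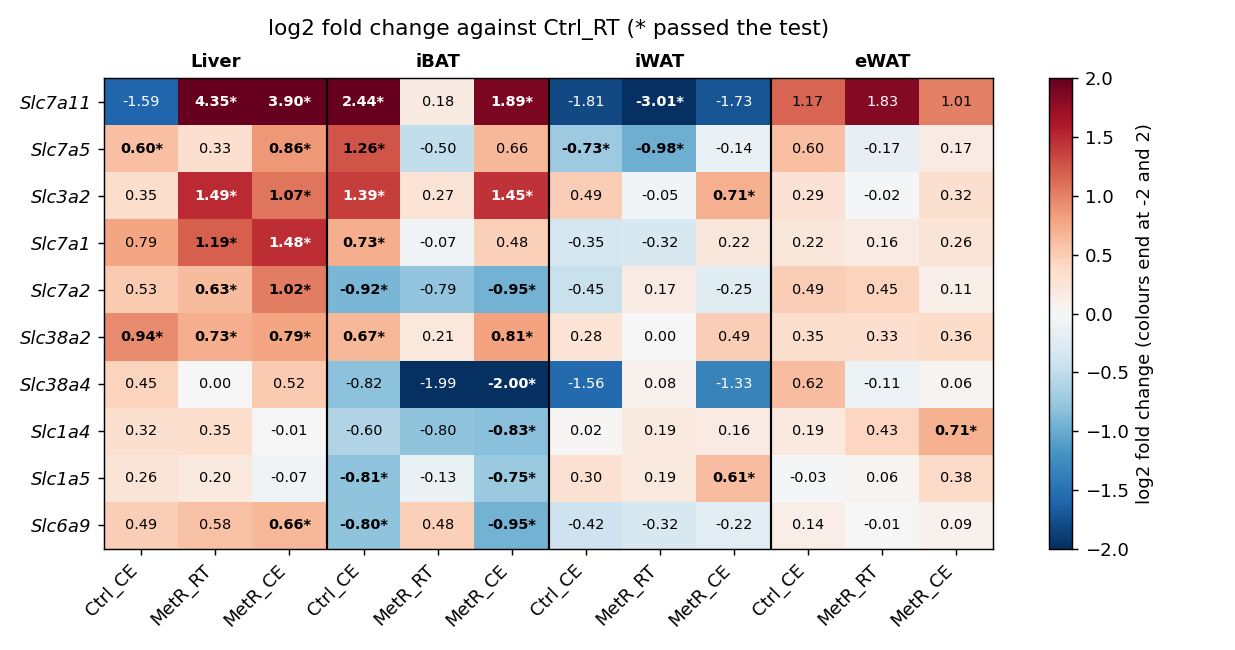
Log2 fold changes of the 10 transporters against Ctrl_RT in each tissue, for Ctrl_CE, MetR_RT and MetR_CE. Colours run from lower to higher and end at a log2 fold change of 2 either way, and an asterisk marks an adjusted p below 0.05 with a fold change of at least 1.5. In liver all marked cells are higher, in iBAT they split by gene, and in eWAT the only marked cell is Slc1a4 in MetR_CE.

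In liver, the transporter genes that passed the test were all higher than in Ctrl_RT. Of the 10, 5 rose and 0 fell in MetR_RT, 2 rose and 0 fell in Ctrl_CE, and 7 rose and 0 fell in MetR_CE, each against Ctrl_RT. The 5 and the 7 include Slc7a11, which was tested only because the restricted groups brought it over the filter on low counts. Over all 22143 genes tested, 2.88% rose and 4.02% fell in MetR_RT (6.91% in either direction), 7.28% rose and 4.64% fell in Ctrl_CE (11.9%), and 6.25% rose and 7.22% fell in MetR_CE (13.5%). These numbers depended on the tool and on single libraries: DESeq2 with apeglm shrinkage called 3 in MetR_RT, 1 in Ctrl_CE and 7 in MetR_CE, and with each library left out in turn edgeR called 3 to 6, 1 to 3 and 6 to 8. The median log2 fold change of the members was 0.61, 0.47 and 0.83, where that of all genes was 0.00451, -0.0108 and -0.0439.

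Slc3a2 and its partner Slc7a11 rose on the restricted diet at both temperatures. Slc3a2 ran from 38.2 to 48 CPM in Ctrl_RT (median 43.3), from 41.8 to 82.6 in Ctrl_CE (median 55.5), from 91.4 to 171 in MetR_RT (median 115) and from 70.8 to 109 in MetR_CE (median 90). Every restricted mouse lay above every Ctrl_RT mouse, at both temperatures. The log2 fold change against Ctrl_RT was 1.49 ± 0.13 (SE, adjusted p = 7.57e-10) in MetR_RT and 1.07 ± 0.13 (adjusted p = 1e-07) in MetR_CE, and 0.35 ± 0.13 in Ctrl_CE, which was below the fold threshold. The effect of restriction on Slc3a2 was smaller in the cold than at room temperature. It was 0.72 ± 0.12 against Ctrl_CE, and the diet by temperature interaction was -0.78 ± 0.18 (adjusted p = 0.0195). This was the only interaction among the 10 genes to pass in liver, where 1.06% of all genes did, 0.375% as higher and 0.682% as lower.

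Slc7a11 was at or near 0 counts in liver on the control diet and was counted in every library on the restricted diet. In Ctrl_RT 5 of 7 libraries and in Ctrl_CE 6 of 7 libraries held 0 counts, and the groups held 4 counts and 1 count in total. In MetR_RT all 7 libraries had the gene, with 121 counts in total and 0.275 to 2.61 CPM (median 0.968), and in MetR_CE there were 73 counts and 0.154 to 1.59 CPM (median 0.76). The MetR_RT libraries all lay above those of Ctrl_RT, and the MetR_CE libraries above those of Ctrl_CE. The ratio of CPM was 22.4 between MetR_RT and Ctrl_RT, with an exact 95% counting interval of 8.54 to 83.7, and 86 between MetR_CE and Ctrl_CE, with an interval of 15 to 3440. These intervals cover counting error only. The fitted log2 fold change of 4.35 ± 0.70 in MetR_RT (adjusted p = 3.7e-05) depends on how counts of 0 are handled.

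The promoters of Slc7a11 and Slc1a4 are shown because they were those of the members that held the core of the C/EBP-ATF response element, to which ATF4 binds. The core was searched as TGATGNAA on both strands from 250 bases before to 50 bases after each start site in the RefSeq promoters of GRCm38.p6, where N is any base. A promoter was given for 7 of the 10 genes, 12 promoters in all, and 2 of them held it, as did 3.97% of all 32851 promoters. In Slc7a11 it started 66 bases before the start site on the gene's strand and 47 bases before it on the other strand, and in Slc1a4 4 bases before it on the other strand. The stretches below run from 100 bases before to 20 bases after the start site, 5′ to 3′ on the gene's strand, with the matches in capitals. The Slc7a11 stretch is chr3:50443594-50443713 and the Slc1a4 stretch chr11:20332694-20332813, both on the minus strand. A match is a string of letters and not a measured binding site.
Slc7a11: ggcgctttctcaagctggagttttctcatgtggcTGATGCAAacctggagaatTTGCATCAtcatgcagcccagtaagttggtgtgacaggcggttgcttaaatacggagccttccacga
Slc1a4: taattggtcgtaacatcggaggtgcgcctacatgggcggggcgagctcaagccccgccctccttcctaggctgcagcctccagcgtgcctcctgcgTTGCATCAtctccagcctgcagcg

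The antioxidant response element core, which NRF2 binds, was searched in the same way as TGACNNNGC. It was found in 4 promoters of members, namely 1 each of Slc7a1 and Slc38a2 and 2 of Slc6a9, and in 12.4% of all promoters. The gene Slc7a11 lies at chr3:50364936-50499087, Slc1a4 at chr11:20302180-20332713, Slc3a2 at chr19:8706882-8723369 and Slc7a5 at chr8:121881146-121907686, all on the minus strand. Of the others, Slc7a1 lies at chr5:148327410-148399904, Slc38a2 at chr15:96687392-96699728 and Slc38a4 at chr15:96994816-97055956 on the minus strand, and Slc7a2 at chr8:40862341-40922070, Slc1a5 at chr7:16781334-16798274 and Slc6a9 at chr4:117835258-117869305 on the plus strand.

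Slc7a5, the other light chain, rose with cold in liver. It was at 2.55 to 8.41 CPM in Ctrl_RT (median 5.48), 7.17 to 9.75 in Ctrl_CE (median 8.11), 5.42 to 9.13 in MetR_RT (median 5.91) and 5.95 to 16.9 in MetR_CE (median 9.09). The groups overlapped throughout. The log2 fold change was 0.60 ± 0.21 in Ctrl_CE (adjusted p = 0.0294) and 0.86 ± 0.21 in MetR_CE (adjusted p = 0.00171), and 0.33 ± 0.21 in MetR_RT (adjusted p = 0.32). The call in Ctrl_CE was lost without any 1 of Ctrl_RT replicates 1, 2 and 3 and Ctrl_CE replicate 5, with values of 0.48 to 0.74 over all 28 omissions, and with apeglm (0.49).

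Both carriers of cationic amino acids rose in MetR_RT and in MetR_CE against Ctrl_RT, and neither passed in MetR_CE against Ctrl_CE. Slc7a1 was at 0.646 to 1.73 CPM in Ctrl_RT (median 0.999), 1.41 to 3.59 in Ctrl_CE (median 1.86), 1.95 to 3.4 in MetR_RT (median 2.5) and 1.3 to 9.4 in MetR_CE (median 2.31). All MetR_RT mice lay above all Ctrl_RT mice. Its log2 fold change was 1.19 ± 0.36 in MetR_RT (adjusted p = 0.0173), 0.79 ± 0.37 in Ctrl_CE (adjusted p = 0.108) and 1.48 ± 0.36 in MetR_CE (adjusted p = 0.00164). The value in MetR_CE was 0.91 (adjusted p = 0.0108) without replicate 4, the library at 9.4 CPM. Against Ctrl_CE, MetR_CE gave 0.69 ± 0.33 (adjusted p = 0.184).

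Slc7a2, a cationic carrier known to be abundant in liver, was at 170 to 341 CPM in Ctrl_RT, 310 to 579 in Ctrl_CE (median 347), 227 to 518 in MetR_RT (median 400) and 449 to 615 in MetR_CE (median 546). The MetR_CE mice all lay above the Ctrl_RT mice, while the groups with a single stimulus overlapped with Ctrl_RT. The log2 fold change was 0.53 ± 0.15 in Ctrl_CE, below the fold threshold, 0.63 ± 0.15 in MetR_RT (adjusted p = 0.00341) and 1.02 ± 0.15 in MetR_CE (adjusted p = 5.43e-06). Its interaction was -0.14 ± 0.22. Against Ctrl_CE, MetR_CE gave 0.49 ± 0.15 (adjusted p = 0.0312), under the fold threshold. The call in MetR_RT was lost without any 1 of Ctrl_RT replicate 1 and MetR_RT replicates 1, 2 and 7 (0.54 to 0.73 over all omissions), and with apeglm (0.55).

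Slc38a2, which cells raise when starved of amino acids, was at 66.6 to 140 CPM in Ctrl_RT (median 118), 105 to 540 in Ctrl_CE (median 176), 150 to 217 in MetR_RT (median 175) and 162 or more in MetR_CE (median 173). Every restricted mouse was above every Ctrl_RT mouse, with log2 fold changes of 0.73 ± 0.25 in MetR_RT (adjusted p = 0.0361) and 0.79 ± 0.25 in MetR_CE (adjusted p = 0.0151). The call in MetR_RT was lost without any 1 of Ctrl_RT replicates 1, 6 and 7 and MetR_RT replicates 4, 6 and 7 (0.64 to 0.80 over all omissions), and with apeglm (0.50). The rise in Ctrl_CE (0.94 ± 0.25, adjusted p = 0.00472) rested on replicate 4 at 540 CPM. Without it the value was 0.50 and no longer passed. That library also had the highest summed macrophage markers of its group, 548 CPM, where Ctrl_RT ran from 126 to 177 CPM. Without it and replicate 2, the next highest for these markers, the value was 0.45 (adjusted p = 0.0516).

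Slc38a4 was at 558 to 953 CPM in Ctrl_RT (median 748), 942 to 1160 in Ctrl_CE (median 1030), 491 to 929 in MetR_RT (median 797) and 945 to 1210 in MetR_CE (median 1130). The levels of both cold groups were close to each other, as were those of both groups at room temperature. The MetR_CE mice all lay above the MetR_RT mice, and the log2 fold changes against Ctrl_RT were 0.45 ± 0.11 in Ctrl_CE (adjusted p = 0.00163), 0.00 ± 0.11 in MetR_RT, with a 95% interval of -0.21 to 0.21, and 0.52 ± 0.11 in MetR_CE (adjusted p = 0.00028). As folds, 1.37 and 1.44, both were below the fold threshold.

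Slc6a9, the glycine carrier, rose in MetR_CE (0.66 ± 0.12, adjusted p = 7.71e-05), where every mouse, at 41.7 to 61.1 CPM (median 50.6), was above every Ctrl_RT mouse, at 21.7 to 39.6 CPM (median 32.3). In MetR_RT the difference of 0.58 ± 0.12 (adjusted p = 0.000695) lay just under the fold threshold, and in Ctrl_CE it was 0.49 ± 0.12. Without Ctrl_RT replicate 1 the rise in MetR_CE was 0.58 and below that threshold. The exchangers Slc1a4 and Slc1a5 passed in no liver comparison, with log2 fold changes against Ctrl_RT of -0.01 to 0.35 for Slc1a4, at 10.4 to 26.1 CPM over all groups, and -0.07 to 0.26 for Slc1a5, at 2.89 to 9.27 CPM.

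**Figure D3:**
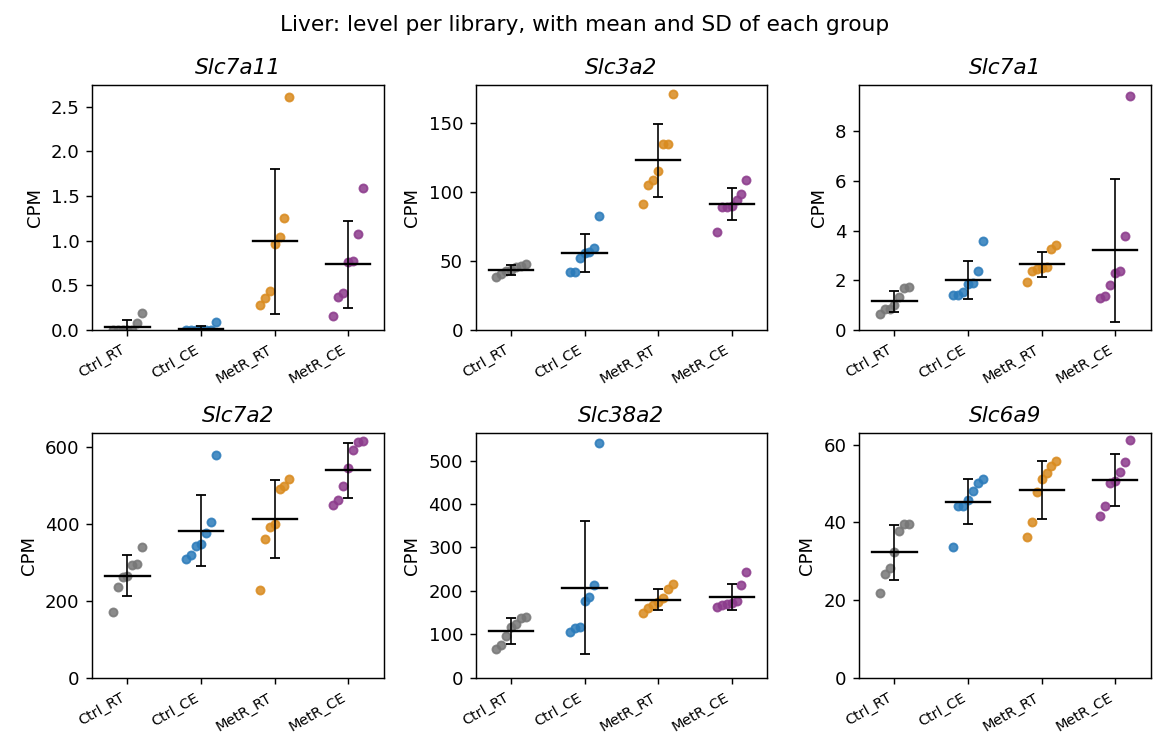
Normalised CPM of selected transporters in each liver library by group, on linear axes that start at 0. Points are libraries, horizontal bars the mean and error bars the SD of 7 mice, with error bars cut at 0. Slc3a2 separated the restricted from the Ctrl_RT mice without overlap, and Slc38a2 in Ctrl_CE had 1 library at 540 CPM.

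Between the restricted groups, MetR_CE against MetR_RT, 0 of the 10 passed (5.19% of all genes did, 2.75% higher and 2.44% lower), although 4 (Slc7a5, Slc3a2, Slc7a2 and Slc38a4) had an unadjusted p under 0.05 in edgeR's test, and DESeq2 also called 0. Slc38a4 (0.52 ± 0.11, adjusted p = 0.000646) and Slc3a2 (-0.43 ± 0.12, adjusted p = 0.0138) missed only the fold threshold. Between the cold groups, MetR_CE against Ctrl_CE, 2 rose and 0 fell, namely Slc7a11 and Slc3a2 (5.26% of all genes, 1.17% higher and 4.1% lower). Of these, Slc7a11 had passed the filter only through the restricted groups. Other cells moved with the liver groups. Summed endothelial markers were 78.8 to 104 CPM in Ctrl_RT, 110 to 135 in MetR_RT, 130 to 218 in Ctrl_CE and 173 to 198 in MetR_CE, with 2, 4 and 5 of 6 markers higher in the last 3 groups. Of 6 macrophage markers, 5 were higher in Ctrl_CE and 1 in MetR_CE, and 1 was lower in MetR_RT. Of 7 hepatocyte markers, 1 was higher and 2 lower in Ctrl_CE, and 1 was lower in MetR_CE. Their part in the transporter differences was not tested.

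In iBAT, transporters rose and fell in both cold groups. Against Ctrl_RT, 5 rose and 3 fell in Ctrl_CE, 3 rose and 5 fell in MetR_CE, and 0 passed in MetR_RT. Among the 5 and among the 3 that rose is Slc7a11, which passed the filter on low counts only through the cold groups. Over all 23915 genes, 4.98% rose and 9.73% fell in Ctrl_CE (14.7% in either direction), 4.36% rose and 10.3% fell in MetR_CE (14.7%), and 0.535% rose and 1.97% fell in MetR_RT (2.5%). The members' median log2 fold change was 0.03, -0.13 and -0.10 in Ctrl_CE, MetR_CE and MetR_RT, beside -0.0832, -0.0996 and -0.0378 for all genes. In MetR_RT, 5 of the 10 had an unadjusted p under 0.05 in edgeR's test, and DESeq2 called 1 without shrinkage and 0 with apeglm.

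The heavy chain and its partners were among those that rose. Slc3a2 was at 42.4 to 80.9 CPM in Ctrl_RT (median 58.3), 62.4 to 82.1 in MetR_RT (median 70.6), 144 to 161 in Ctrl_CE (median 152) and 135 to 189 in MetR_CE (median 152). Cold separated the mice completely on the restricted diet and against Ctrl_RT, with log2 fold changes of 1.39 ± 0.11 in Ctrl_CE (adjusted p = 2.98e-11) and 1.45 ± 0.10 in MetR_CE (adjusted p = 1.13e-11). Restriction gave 0.27 ± 0.10 (adjusted p = 0.116) at room temperature and 0.07 ± 0.10 in the cold, with a 95% interval of -0.13 to 0.27.

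Slc7a5 was at 0.242 to 1.07 CPM in Ctrl_RT (median 0.471), 0.21 to 0.582 in MetR_RT (median 0.401), 0.769 to 1.98 in Ctrl_CE (median 1.26) and 0.398 to 1.09 in MetR_CE (median 0.912). It rose in Ctrl_CE by 1.26 ± 0.30 on the log2 scale (adjusted p = 0.00127), and the value in MetR_CE was 0.66 ± 0.30 (adjusted p = 0.0948). Slc7a11 was scarce, with 4 counts over 6 Ctrl_RT libraries, 4 in MetR_RT, 24 over 6 Ctrl_CE libraries and 15 in MetR_CE. It was tested only because the cold groups brought it over the filter of 10 counts, which limits what its p-values show. Its CPM were 0 to 0.0393 in Ctrl_RT (median 0.0356), 0 to 0.0582 in MetR_RT (median 0.0447), 0.0413 to 0.245 in Ctrl_CE (median 0.197) and 0.0409 to 0.478 in MetR_CE (median 0.0702). Both cold groups lay above Ctrl_RT in CPM, but at the edge their libraries held as few counts as those of Ctrl_RT. There only library size set them apart. The ratio of CPM between Ctrl_CE and Ctrl_RT was 6.46, with an exact 95% counting interval of 2.22 to 25.6 (log2 fold change 2.44 ± 0.68, adjusted p = 0.00553). The rise in MetR_CE (1.89 ± 0.71, adjusted p = 0.0407) was lost under 6 of 9 other settings, with values from 0.45 to 2.17, and without any 1 of Ctrl_RT replicates 1, 2, 3 and 6 and MetR_CE replicates 6 and 7, with values from 1.24 to 2.05 over all omissions.

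Slc7a1 was at 2.64 to 4.64 CPM in Ctrl_RT (median 3.74) and 4.12 to 7.43 in Ctrl_CE (median 6.69), a rise of 0.73 ± 0.15 (adjusted p = 0.000333), and the difference of 0.48 ± 0.15 in MetR_CE was below the fold threshold. The other cationic carrier, Slc7a2, went the opposite way. It was at 1.59 to 3.26 CPM in Ctrl_RT (median 2.19), 0.612 to 1.57 in Ctrl_CE (median 1.15), 0.932 to 1.79 in MetR_RT (median 1.18) and 0.452 to 2.21 in MetR_CE (median 1.04). It fell by 0.92 ± 0.28 in Ctrl_CE (adjusted p = 0.0103) and by 0.95 ± 0.27 in MetR_CE (adjusted p = 0.00638) on the log2 scale, and in MetR_RT the log2 fold change was -0.79 ± 0.27 (adjusted p = 0.0708). Ctrl_CE did not overlap with Ctrl_RT.

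Slc38a2 was at 36.9 to 87.2 CPM in Ctrl_RT (median 69.6), 65 to 99.6 in MetR_RT (median 75.2), 87.2 to 135 in Ctrl_CE (median 104) and 104 to 127 in MetR_CE (median 123). It rose by 0.67 ± 0.14 in Ctrl_CE (adjusted p = 0.000247) and by 0.81 ± 0.13 in MetR_CE (adjusted p = 1.4e-05), where all mice lay above Ctrl_RT. Without Ctrl_RT replicate 1, the value in Ctrl_CE was 0.54 and below the fold threshold.

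Slc38a4 fell in MetR_CE by 2.00 ± 0.66 on the log2 scale (adjusted p = 0.0199), and this rested on 1 library. It was at 0.129 to 3.42 CPM in Ctrl_RT (median 0.73) and 0.0796 to 0.829 in MetR_CE (median 0.164), and without Ctrl_RT replicate 5 at 3.42 CPM the value was -1.2 (adjusted p = 0.164). That library had 1560 CPM of summed skeletal muscle markers, the most of all iBAT libraries. In the 11 iBAT libraries with 0.578 to 1.82 CPM of muscle markers, Slc38a4 was at 0.0408 to 0.468 CPM (median 0.129), and in the 15 libraries with 59.9 to 1560 CPM of them it was at 0.123 to 3.42 CPM (median 0.734). The part of muscle in the difference between groups was not tested.

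The alanine, serine and cysteine exchangers fell. Slc1a5, the most abundant transporter of the list in iBAT, was at 565 to 912 CPM in Ctrl_RT (median 682), 496 to 773 in MetR_RT (median 656), 308 to 540 in Ctrl_CE (median 369) and 330 to 492 in MetR_CE (median 434). Neither cold group overlapped with Ctrl_RT, and the log2 fold change was -0.81 ± 0.13 in Ctrl_CE (adjusted p = 1.46e-05) and -0.75 ± 0.13 in MetR_CE (adjusted p = 2.41e-05). In MetR_RT it was -0.13 ± 0.13. Slc1a4 was at 0.511 to 2.23 CPM in Ctrl_RT (median 1.67) and 0.616 to 1.12 in MetR_CE (median 0.827), a fall of 0.83 ± 0.30 on the log2 scale (adjusted p = 0.0299) that was lost without any 1 of Ctrl_RT replicates 1, 2 and 4 and MetR_CE replicates 3 and 5 (-1.01 to -0.70 over all omissions). Its values of -0.60 ± 0.30 in Ctrl_CE and -0.80 ± 0.30 in MetR_RT did not pass.

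Slc6a9 was at 0.904 to 1.62 CPM in Ctrl_RT (median 1.12), 1.14 to 2.36 in MetR_RT (median 1.71), 0.49 to 0.832 in Ctrl_CE (median 0.677) and 0.247 to 0.899 in MetR_CE (median 0.637). It fell by 0.80 ± 0.23 in Ctrl_CE (adjusted p = 0.00865) and by 0.95 ± 0.23 in MetR_CE (adjusted p = 0.00172) on the log2 scale, with no overlap with Ctrl_RT. On the restricted diet the fall with cold, MetR_CE against MetR_RT, was 1.44 ± 0.22 on the log2 scale (adjusted p = 1.3e-05).

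**Figure D4:**
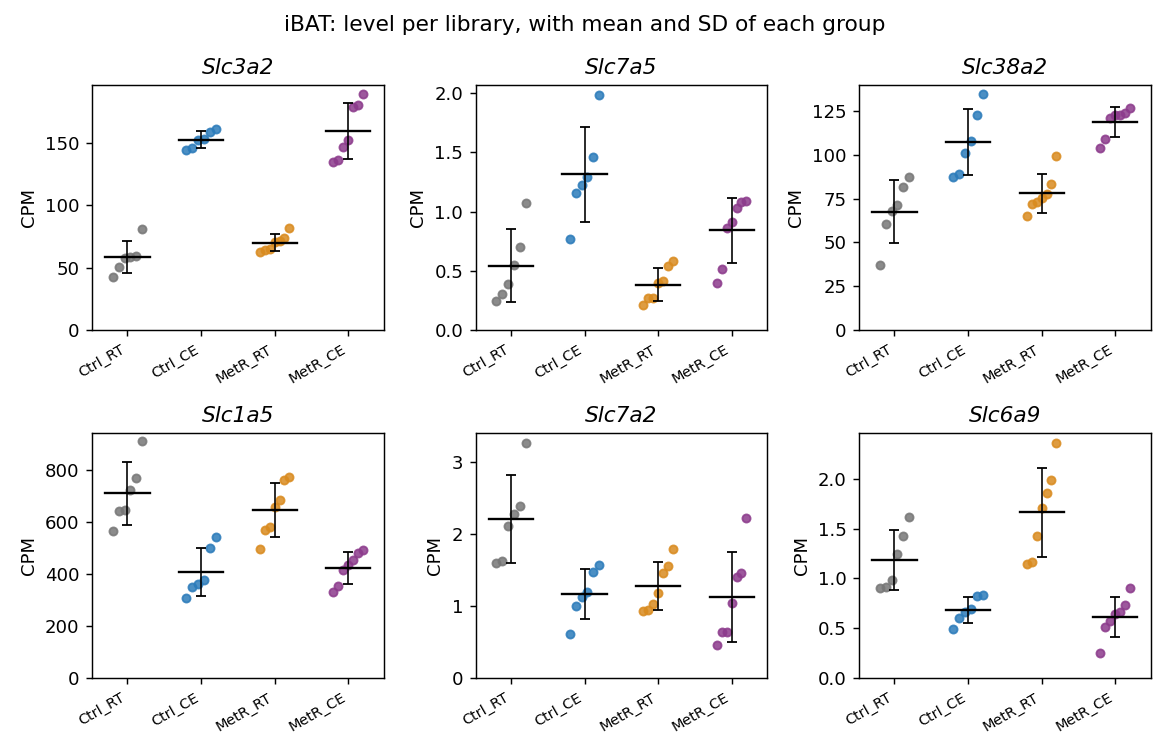
Normalised CPM of selected transporters in each iBAT library by group, on linear axes that start at 0. Points are libraries, horizontal bars the mean and error bars the SD of 6 or 7 mice, with error bars cut at 0. Slc3a2 was higher and Slc1a5 lower in every cold mouse than in every Ctrl_RT mouse.

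For cold on the restricted diet, MetR_CE against MetR_RT, 3 rose (Slc7a5, Slc3a2 and Slc38a2) and 2 fell (Slc1a5 and Slc6a9). The call of Slc38a2 was lost without MetR_RT replicate 1 (0.56) and that of Slc1a5 without any 1 of replicates 5 and 6 of either group (-0.67 to -0.56 over all omissions). In this comparison 8.53% of all genes passed, 3.41% as higher and 5.13% as lower. For restriction in the cold, MetR_CE against Ctrl_CE, 0 of 10 passed (1.64% of all genes, 0.481% higher and 1.16% lower), and for the interaction 0 of 10 (0.372%, 0.247% higher and 0.125% lower). At an unadjusted p under 0.05 in edgeR's test these numbers were 1 and 0, and DESeq2 also called 0 in both. Of 6 brown adipocyte markers, 4 were higher in each cold group than in Ctrl_RT. Of 5 fibroblast markers, 3 were lower in Ctrl_CE, 4 in MetR_RT and 5 in MetR_CE, with sums of 332 to 878 CPM in Ctrl_RT and 85.9 to 181 CPM in MetR_CE. Of 7 hepatocyte markers, 5, 4 and 5 were lower in these groups, with sums of 46.1 to 136 CPM in Ctrl_RT and at most 47.8 CPM in the others. Among them, Alb was at 38.2 CPM in Ctrl_RT replicate 5, at 0.0859 to 2.66 CPM in the other Ctrl_RT libraries and at most 2.23 CPM in the other groups. Of 6 macrophage markers, 1 was lower in Ctrl_CE, 3 in MetR_RT and 5 in MetR_CE, with sums of 66.3 to 112 CPM in Ctrl_RT, 44.4 to 105 in Ctrl_CE, 37 to 67.5 in MetR_RT and 28 to 45.3 in MetR_CE. Of 6 lymphocyte markers, 2 (Ptprc and Cd79a) were lower in MetR_CE and 0 passed in the other groups, with sums of 5.28 to 7.39 CPM in Ctrl_RT and 3.16 to 4.21 CPM in MetR_CE. The part of these cell types in the transporter differences, the falls in MetR_CE included, was not tested.

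In iWAT, at most 2 of the 10 genes passed in any comparison with Ctrl_RT, and the shares over all genes were of similar size. Against Ctrl_RT, 0 rose and 1 fell in Ctrl_CE, 0 rose and 2 fell in MetR_RT, and 2 rose and 0 fell in MetR_CE. Of all 26428 genes, 5.99% rose and 9.94% fell in Ctrl_CE (15.9% in either direction), 4.25% rose and 7.36% fell in MetR_RT (11.6%), and 8.05% rose and 14.4% fell in MetR_CE (22.4%). The members' median log2 fold change was -0.38, -0.02 and 0.01, beside -0.112, -0.0311 and -0.0774 for all genes.

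Slc7a5 was at 3.51 to 9.63 CPM in Ctrl_RT (median 6.6), 3.04 to 6.94 in Ctrl_CE (median 3.65), 2.62 to 5.03 in MetR_RT (median 3.41) and 2.7 to 13.2 in MetR_CE (median 5.54). It fell in MetR_RT by 0.98 ± 0.27 on the log2 scale (adjusted p = 0.00928) and in Ctrl_CE by 0.73 ± 0.27 (adjusted p = 0.0412), and in MetR_CE the log2 fold change was -0.14 ± 0.28, with a 95% interval of -0.70 to 0.41. The interaction was 1.57 ± 0.39 (adjusted p = 0.0291). The fall in Ctrl_CE was lost without any 1 of Ctrl_RT replicates 1, 3, 6 and 7 and Ctrl_CE replicates 1, 2, 3, 4 and 6 (-0.91 to -0.63 over all omissions), with a replicate block and with apeglm. The interaction was lost without any 1 of Ctrl_RT replicate 3, MetR_RT replicates 3 and 4, Ctrl_CE replicates 1 and 2 and MetR_CE replicates 4 and 5, with values from 1.2 to 1.75.

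Slc7a1 had the same kind of interaction, 0.88 ± 0.22 (adjusted p = 0.0303), which was lost without any 1 of the same libraries except MetR_RT replicate 3, and without Ctrl_RT replicate 7, with values from 0.67 to 0.98. It was at 9.96 to 15.4 CPM in Ctrl_RT (median 13.1), 8.64 to 11.9 in Ctrl_CE (median 9.64), 8.63 to 12.2 in MetR_RT (median 10.6) and 9.88 to 25.1 in MetR_CE (median 13). None of its differences from Ctrl_RT passed, at -0.35 ± 0.15 in Ctrl_CE, -0.32 ± 0.15 in MetR_RT and 0.22 ± 0.16 in MetR_CE. These 2 interactions were the ones that passed among the 10, against 1.65% of all genes (0.511% higher, 1.14% lower), and both were shrunk to 0.00 by DESeq2 with apeglm.

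Slc3a2 was at 69.1 to 145 CPM in Ctrl_RT (median 112), 117 to 228 in Ctrl_CE (median 148), 82.3 to 123 in MetR_RT (median 108) and 147 to 231 in MetR_CE (median 166). All MetR_CE mice lay above all mice kept at room temperature. It rose in MetR_CE by 0.71 ± 0.16 against Ctrl_RT (adjusted p = 0.000604) and by 0.76 ± 0.16 against MetR_RT (adjusted p = 0.00537), and the value of 0.49 ± 0.15 in Ctrl_CE was below the fold threshold. Slc1a5, again the highest of the list per length, was at 1300 to 2190 CPM in Ctrl_RT (median 1570), 1770 to 2490 in Ctrl_CE (median 2020), 1470 to 2280 in MetR_RT (median 1930) and 2330 to 2660 in MetR_CE (median 2550). It rose in MetR_CE by 0.61 ± 0.12 (adjusted p = 0.000129) with no overlap with Ctrl_RT or MetR_RT, and its fold of 1.53 dropped below the fold threshold without Ctrl_RT replicate 5 or 6. Slc38a2 was higher by 0.49 ± 0.13 in MetR_CE (adjusted p = 0.00255), under the fold threshold.

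Slc7a11 fell in MetR_RT by 3.01 ± 0.80 on the log2 scale (adjusted p = 0.0068), which rested on 1 library. Ctrl_RT replicate 7 was at 7.42 CPM and the other 6 at 0.103 to 0.625 CPM, against 0 to 0.655 CPM in MetR_RT (median 0.0973). Without that library the log2 fold change was -1.21 (adjusted p = 0.162). Slc38a4 ran from 0.21 to 18.7 CPM over the depot and passed in no comparison. Its highest library, MetR_RT replicate 6, also had the most skeletal muscle markers, 19600 CPM. Slc7a2, Slc1a4 and Slc6a9 passed in no comparison, with log2 fold changes against Ctrl_RT from -0.45 to 0.19.

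**Figure D5:**
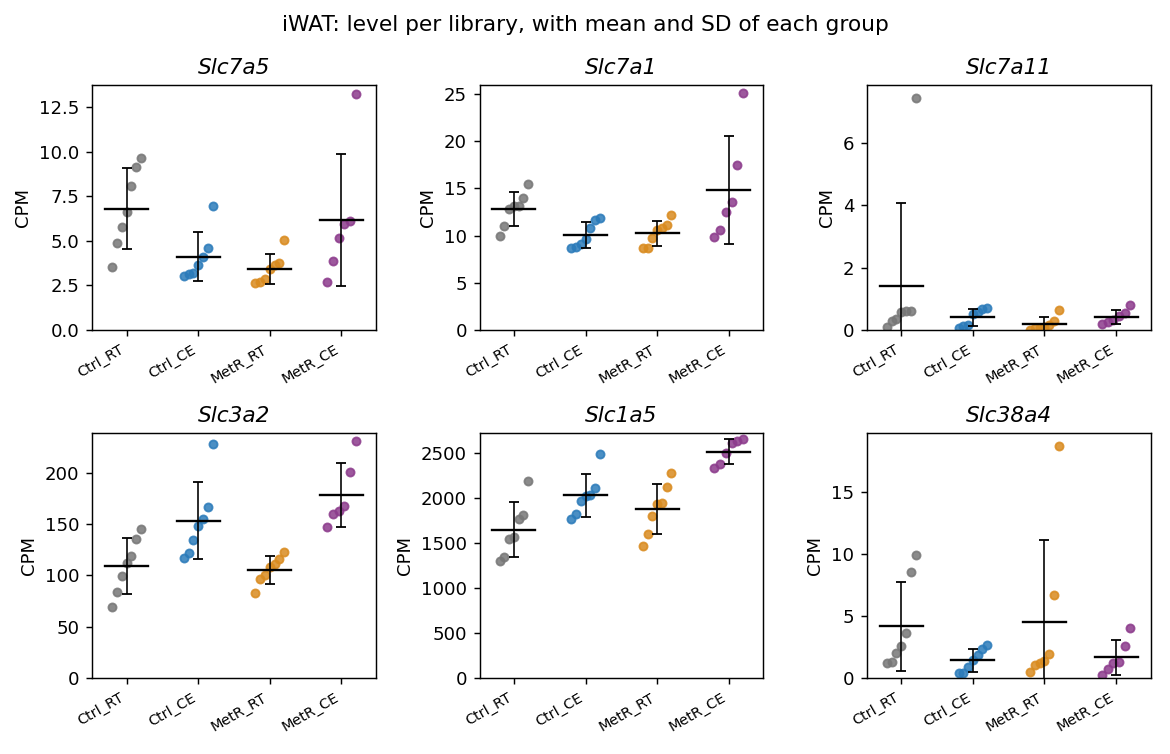
Normalised CPM of selected transporters in each iWAT library by group, on linear axes that start at 0. Points are libraries, horizontal bars the mean and error bars the SD of 6 or 7 mice, with error bars cut at 0. Slc3a2 and Slc1a5 were higher in every MetR_CE mouse than in every Ctrl_RT mouse, and Slc7a11 had 1 Ctrl_RT library far above the rest.

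For cold on the restricted diet, MetR_CE against MetR_RT, 1 of 10 rose and 0 fell (1.88% of all genes passed, 0.602% as higher and 1.28% as lower), and for restriction in the cold, MetR_CE against Ctrl_CE, 0 passed (2.27%, with 0.715% higher and 1.55% lower). In the latter, 3 (Slc7a5, Slc7a1 and Slc1a5) had an unadjusted p under 0.05 in edgeR's test, and DESeq2 also called 0. Of these, Slc7a1 (0.56 ± 0.16, adjusted p = 0.0475) missed only the fold threshold. In this depot all 6 brown adipocyte markers were higher and all 6 macrophage markers lower than in Ctrl_RT in each of the other groups. Summed macrophage markers were 1260 to 2010 CPM in Ctrl_RT, up to 1430 in Ctrl_CE, 231 to 952 in MetR_RT and 175 to 436 in MetR_CE, and summed fibroblast markers 6810 to 23000, 827 to 9920, 1850 to 5910 and 926 to 1820 CPM in the same order. Of 5 fibroblast markers, 3, 3 and 4 were lower than in Ctrl_RT. Their part in the transporter differences was not tested. Without the 4 libraries with most muscle markers, the 2 interactions still passed and 3 members passed in MetR_CE.

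In eWAT, 1 of the 10 genes changed. Slc1a4 was at 7.93, 7.79, 6.25 and 7.73 CPM in the 4 Ctrl_RT libraries, at 6.73 to 9.48 CPM in Ctrl_CE (median 9.11), at 8.05 to 12.2 CPM in MetR_RT (median 10.2) and at 9.72 to 13.8 CPM in MetR_CE (median 12.5). The MetR_CE mice lay above all mice on the control diet, and the MetR_RT mice above those of Ctrl_RT. It rose in MetR_CE by 0.71 ± 0.13 (adjusted p = 0.0036), and against Ctrl_CE the value of 0.52 ± 0.11 (adjusted p = 0.0029) was below the fold threshold. In MetR_RT it was 0.43 ± 0.13 (adjusted p = 0.237). The rise held when any 1 of the 24 libraries was left out (0.64 to 0.76), and fell to 0.37 (adjusted p = 0.181) when the 4 libraries that the study left out were added. Markers of other cells moved in the same comparison. Of 5 fibroblast markers, 2 were lower in MetR_CE (Col3a1 at -1.65 and Col1a1 at -1.48), with sums of 1960 to 3490 CPM in Ctrl_RT and 707 to 1460 CPM in MetR_CE. Of 5 skeletal muscle markers tested, 1 was lower (Acta1 at -4.42), with sums of 19.6 to 423 CPM and 5.83 to 11.2 CPM, and of 7 hepatocyte markers 1 was lower (Cyp2e1 at -2.71), with sums of 3360 to 6710 CPM and 499 to 1210 CPM. The hepatocyte marker Alb did not share this fall, at 4.35 to 12.1 CPM in Ctrl_RT (median 7.9) and 8.78 to 106 CPM in MetR_CE (median 27.5). Their part in the rise of Slc1a4 was not tested.

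Against Ctrl_RT, 1 member rose in MetR_CE (1.3% of all 27786 genes passed, 0.601% as higher and 0.695% as lower), 0 passed in Ctrl_CE (2.42%, 0.979% higher and 1.44% lower) and 0 in MetR_RT (0.115%, 0.0324% higher and 0.0828% lower). The members' median log2 fold change was 0.29, 0.32 and 0.11, beside -0.0308, -0.0144 and -0.021 for all genes. In the interaction (2.3% of all genes, 1.1% higher and 1.2% lower), in MetR_CE against MetR_RT (0.112%, 0.0612% higher and 0.0504% lower) and in MetR_CE against Ctrl_CE (4.35%, 2.23% higher and 2.12% lower), 0 of 10 passed. At an unadjusted p under 0.05 in edgeR's test there were 2 in Ctrl_CE, 2 in MetR_RT, 0 in the interaction, 3 in MetR_CE against MetR_RT and 2 in MetR_CE against Ctrl_CE, and DESeq2 called 0 in each of these. The last 2 were Slc1a4, with its value given above, and Slc1a5 (0.41 ± 0.13, adjusted p = 0.0401). Both missed only the fold threshold. Slc3a2 was at 100 to 161 CPM in Ctrl_RT and 121 to 194 in MetR_CE (0.32 ± 0.13, adjusted p = 0.24), and Slc1a5 at 2090 to 3090 CPM and 2530 to 3900 CPM (0.38 ± 0.15, adjusted p = 0.216). With 4 Ctrl_RT libraries the errors were wide for the scarcer members, such as Slc7a11 with 1.83 ± 1.0 in MetR_RT (95% interval -0.24 to 3.91) and Slc38a4 with -0.11 ± 1.2. MetR_RT replicate 2, the library with the epididymal markers, was the highest of its group for both, at 3.53 CPM and 12.4 CPM.

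Whether a change differed between tissues was tested in a joint edgeR fit of 19993 genes, as the log2 fold change in another tissue minus that in iWAT, with an adjusted p below 0.05 as the threshold. For cold on the control diet, 5 of the 10 genes differed between liver and iWAT (32.6% of all genes did), 5 between iBAT and iWAT (23%) and 2 between eWAT and iWAT (12.8%). For restriction at room temperature, 6 differed between liver and iWAT (22.5%), 1 between iBAT and iWAT (11.7%) and 1 between eWAT and iWAT (10.2%). The 4 tissues came from the same 28 mice, which this fit does not use. With limma voom and the mouse as a block, 17 differences passed where the joint fit gave 20. The 4 that were lost were the cold effect of Slc38a2 in liver (0.45, adjusted p = 0.131) and of Slc7a11 in eWAT (1.51, adjusted p = 0.302) and the restriction effect of Slc1a4 in iBAT (-0.95, adjusted p = 0.132) and of Slc7a11 in eWAT (2.56, adjusted p = 0.0779). The 1 that was gained was the cold effect of Slc7a1 in eWAT (0.57, adjusted p = 0.0343).

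The restriction effect was higher in liver than in iWAT for Slc3a2 by 1.55 ± 0.18 (adjusted p = 1.17e-10), for Slc7a1 by 1.52 ± 0.32 (adjusted p = 0.000139) and for Slc7a5 by 1.31 ± 0.40 (adjusted p = 0.0102). The cold effect was higher in iBAT than in iWAT for Slc7a5 by 1.99 ± 0.47 (adjusted p = 0.000803), for Slc7a1 by 1.08 ± 0.29 (adjusted p = 0.00356) and for Slc3a2 by 0.90 ± 0.19 (adjusted p = 0.000122), and lower for Slc1a5, at -1.11 ± 0.23 (adjusted p = 9.18e-05). For Slc7a11 the fitted differences rest on few counts, in liver on control groups with 4 counts and 1 count, and their size depends on how counts of 0 are handled. The gene passed the filter in liver only through the restricted groups and in iBAT only through the cold groups. Its restriction effect was higher in liver than in iWAT by 7.46 ± 1.2 (adjusted p = 7.22e-07) and in eWAT than in iWAT by 4.81 ± 1.1 (adjusted p = 0.00127), and without Ctrl_RT replicate 7 of iWAT these were 5.70 ± 1.1 (adjusted p = 5.66e-05) and 3.05 ± 0.99 (adjusted p = 0.0361). Its cold effect was higher than in iWAT by 4.27 ± 1.3 in iBAT (adjusted p = 0.0106) and by 2.98 ± 1.0 in eWAT (adjusted p = 0.0404), and without that library both were lost, at 2.53 (adjusted p = 0.129) and 1.21 (adjusted p = 0.463).

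The cold effect was also higher in liver than in iWAT for Slc38a2 by 0.66 ± 0.25 (adjusted p = 0.028) and for Slc7a2 by 0.99 ± 0.36 (adjusted p = 0.0275), and both rested on Ctrl_CE replicate 4 of liver. Without it they were 0.24 (adjusted p = 0.393) and 0.87 (adjusted p = 0.0581). The restriction effect on Slc38a2 was higher in liver by 0.74 ± 0.25 (adjusted p = 0.0196), and by 0.74 ± 0.20 without that library.

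Among other amino acid transporters, some passed in either direction. Of 42 further amino acid transporter genes, 39 had enough counts in eWAT, 36 in iWAT, 31 in iBAT and 28 in liver. In MetR_CE against Ctrl_RT, 1 rose and 2 fell in liver (median log2 fold change 0.22), 2 rose and 4 fell in iBAT (median -0.08), 5 rose and 8 fell in iWAT (median -0.33) and 0 passed in eWAT (median -0.01). In that comparison the share of all genes that passed was 22.4% for iWAT, 14.7% for iBAT, 13.5% for liver and 1.3% for eWAT. In liver these were Slc43a1 (-0.99 ± 0.16), Slc43a2 (0.85 ± 0.14), which both carry large neutral amino acids, and Slc3a1 (-1.32 ± 0.26), the heavy chain of the cystine and cationic amino acid carrier of the kidney. In iBAT, among others, Slc1a3, a glutamate carrier, fell by 1.17 ± 0.10 on the log2 scale, and Slc6a6, the taurine carrier, and Slc7a6, another light chain of Slc3a2, rose by 0.74 ± 0.072 and 0.96 ± 0.12. In iWAT, Slc38a1 and Slc7a7 fell by 2.68 ± 0.30 and 1.51 ± 0.20 on the log2 scale and Slc6a6 rose by 0.89 ± 0.12.

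The wider amino acid response was followed with 23 genes regulated through ATF4 or its partners. In MetR_RT, 16 rose and 0 fell in liver (median log2 fold change 1.13), 2 rose and 0 fell in iBAT (0.05), 5 rose and 2 fell in iWAT (0.26) and 0 passed in eWAT (0.08). The 3 with the smallest adjusted p in liver were Vldlr, a lipoprotein receptor (3.36 ± 0.21), and Phgdh (5.18 ± 0.39) and Psat1 (3.23 ± 0.26), enzymes of serine synthesis. In iBAT the 2 were Mthfd2 (2.13 ± 0.39), a mitochondrial folate enzyme, and the transcription factor Atf5 (0.73 ± 0.18), and in iWAT they included Aldh18a1 (-1.04 ± 0.16), an enzyme of proline synthesis, Atf5 (1.01 ± 0.19) and the hormone Fgf21 (1.52 ± 0.38). In Ctrl_CE, 2 rose and 1 fell in liver, 10 rose and 2 fell in iBAT, 5 rose and 2 fell in iWAT and 1 rose and 1 fell in eWAT, and in MetR_CE 12 rose and 1 fell, 8 rose and 2 fell, 11 rose and 2 fell, and 3 rose and 1 fell in the same tissues. Of all genes, the share that passed was 6.91% in MetR_RT, 11.9% in Ctrl_CE and 13.5% in MetR_CE for liver, 2.5%, 14.7% and 14.7% for iBAT, 11.6%, 15.9% and 22.4% for iWAT, and 0.115%, 2.42% and 1.3% for eWAT.

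Of 20 cytosolic aminoacyl-tRNA synthetases, which charge tRNAs with the amino acids taken up, 3 rose in liver in MetR_RT and 0 fell, namely Gars (1.03 ± 0.093), Sars (0.71 ± 0.074) and Iars (0.63 ± 0.08), and 0 passed in the 3 fat depots. In MetR_CE, 4 of them rose in iWAT (Eprs, Sars, Gars and Wars), 2 in liver (Gars and Iars) and 1 in iBAT (Wars), and in Ctrl_CE 1 rose in iBAT (Wars) and 1 in iWAT (Gars). In the other comparisons with Ctrl_RT 0 passed, and 0 fell in any. All these counts are to be read against the shares of all genes just given.

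Of 8 glutathione and NRF2 genes, those that rose in liver were Nqo1 and Hmox1 in Ctrl_CE, Nqo1, Gclc and Srxn1 in MetR_RT and Nqo1 in MetR_CE. In iBAT they were Srxn1, Hmox1 and Txnrd1 in Ctrl_CE, Gclm and Hmox1 in MetR_RT and all 4 of these genes in MetR_CE. In iWAT, Srxn1 and Gss rose in Ctrl_CE and Srxn1 in MetR_CE, while Hmox1, which encodes heme oxygenase, fell in MetR_RT by 1.97 and in MetR_CE by 1.91 on the log2 scale. In eWAT, Srxn1 rose in Ctrl_CE, and 0 passed in the other groups.

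Of 8 genes of methionine and cystine use in cells, Cth and Mat1a rose in liver in all 3 groups, joined by Gnmt in MetR_RT, where Bhmt fell by 1.12 on the log2 scale, and by Mtr in MetR_CE. In iBAT, Gnmt rose in both cold groups, Mat1a fell in all 3 groups, Cbs in both cold groups and Bhmt in Ctrl_CE. In iWAT, Mat1a rose in both cold groups, Mtr fell in both, and Cbs fell in Ctrl_CE, while 0 passed in MetR_RT, and in eWAT 0 passed in any group. Mat1a and Bhmt are abundant in hepatocytes, whose markers were also lower in iBAT. Among these markers, Alb was at 38.2 CPM in Ctrl_RT replicate 5 of iBAT and at most 2.66 CPM in the other libraries of the depot. The part of hepatocyte RNA, and of that library, in the values of Mat1a and Bhmt was not tested.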

How the data were processed

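RNA of 4 tissues from 28 mice was sequenced, and the authors deposited raw counts per gene for each tissue (110 libraries, 56884 genes). The study's methods name both featureCounts and Salmon for counting, and the submitters' processing notes list STAR 2.7.9a, featureCounts 2.0.3, Salmon 1.9.0, DESeq2 1.46.0, MultiQC 1.19 and the build mm10. The values were whole numbers and were used as deposited, and 0 columns were left unused. The 5 libraries that the study left out (iBAT Ctrl_CE replicate 5, eWAT Ctrl_RT replicates 2, 4 and 5, eWAT MetR_RT replicate 7) were inferred, and 105 libraries were kept. For each possible set, the mean normalised count of every gene over the remaining libraries of the tissue was compared with that of the study. The median deviation was 0.257% for the best set and 1.12% for the next in iBAT, and 0.14% and 0.667% in eWAT. No pair of libraries held identical counts. Gene names came from RefSeq tables by Ensembl identifier (51948 of 56884 matched).

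Genes with at least 10 counts in a tissue were fitted with edgeR 4.0.16 (R 4.3.3, limma 3.58.1): TMM scaling, a quasi-likelihood F-test with diet, temperature and their interaction over the 4 groups, and Benjamini-Hochberg adjustment over all genes of the tissue. A gene was called at an adjusted p below 0.05 and a fold change of at least 1.5. The study's methods used DESeq2 with the same design, filter and thresholds, and DESeq2 1.42.0 with and without apeglm 1.24.0 was run as an alternative. The SE is the log2 fold change divided by the square root of F, and the prior count was 2. The interaction is the restriction effect in the cold minus that at room temperature. A joint fit held the 19993 genes with enough counts in every tissue. The fits were tested on simulated data.

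The members and lists were chosen with earlier results of these data known. Members are described in every tissue whatever their values. Of other amino acid transporters, those with the 3 smallest adjusted p in MetR_CE are named per tissue, and of the amino acid response genes and tRNA synthetases those in MetR_RT. The other synthetases, the glutathione and NRF2 genes and the methionine and cystine genes named are all those that passed, chosen after their values were seen. Alternatives were other scaling, filters, tools and groupings, a replicate block and leaving out libraries, of which the omissions in liver, iBAT and iWAT, of muscle-rich or macrophage-rich libraries, and of single libraries in the joint fit were chosen after seeing the data. Up to 3 genes of most similar pattern are given per member, and 1 of them is not reported here.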

Additional observations from a re-analysis of the deposited data

Results flagged for a closer look

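Of 160 groups of 4 to 7 libraries, 27 had a library that stood far from the others by Dixon's criterion, where chance would give about 8 (1 in 20) for normally distributed values. The criterion was applied to CPM without a log, and most flagged libraries were the highest of their group, so nothing is read from the excess over 8. For Slc7a11 in liver Ctrl_CE, 6 of 7 libraries held 0 counts, so that the remaining library was bound to be flagged. For Slc7a11 these were liver Ctrl_RT replicate 4 (0.187 CPM), Ctrl_CE replicate 4 (0.0932 CPM) and MetR_RT replicate 3 (2.61 CPM), iBAT MetR_CE replicate 7 (0.478 CPM), iWAT Ctrl_RT replicate 7 (7.42 CPM), and eWAT MetR_RT replicate 2 (3.53 CPM) and MetR_CE replicate 4 (1.01 CPM), all the highest of their group. For Slc38a4 they were, again as the highest, iBAT Ctrl_RT replicate 5 (3.42 CPM), MetR_RT replicate 2 (0.87 CPM) and MetR_CE replicate 5 (0.829 CPM), iWAT MetR_RT replicate 6 (18.7 CPM), and eWAT Ctrl_RT replicate 6 (11.8 CPM) and MetR_RT replicate 2 (12.4 CPM).

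In liver, Ctrl_CE replicate 4 was also the highest of its group for Slc7a2 (579 CPM) and Slc38a2 (540 CPM), MetR_CE replicate 4 was the highest for Slc7a1 (9.4 CPM), and Ctrl_CE replicate 1 was the lowest for Slc6a9 (33.6 CPM). In iWAT, the highest libraries were Ctrl_CE replicate 5 (6.94 CPM) and MetR_CE replicate 4 (13.2 CPM) for Slc7a5, Ctrl_RT replicate 2 (8.4 CPM) for Slc7a2, and MetR_RT replicate 6 (5.6 CPM) and MetR_CE replicate 4 (5.71 CPM) for Slc6a9. In eWAT, Ctrl_RT replicate 6 was the highest for Slc7a5 (16.5 CPM) and Slc6a9 (20.2 CPM) and the lowest for Slc1a4 (6.25 CPM), MetR_RT replicate 1 was the lowest for Slc38a2 (60.8 CPM), and MetR_CE replicate 4 the lowest for Slc1a5 (2530 CPM).

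The effect of restriction differed between temperatures, by edgeR's interaction term on the log2 scale, for Slc3a2 in liver (-0.78) and for Slc7a1 (0.88) and Slc7a5 (1.57) in iWAT. Both interactions in iWAT were shrunk to 0.00 by DESeq2 with apeglm. With each library left out in turn, 0 to 2 passed in iWAT, and 1 passed in liver throughout.

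Effects also differed from those in iWAT by the joint edgeR test of the difference, which does not use that the tissues came from the same mice (with the mouse as a block in limma voom, 4 of the 20 were lost and 1 was gained). For cold on the control diet the log2 differences were, in liver, 1.35 for Slc7a5, 1.16 for Slc7a1, 0.99 for Slc7a2, 0.66 for Slc38a2 and 0.92 for Slc6a9. In iBAT they were 4.27 for Slc7a11, 1.99 for Slc7a5, 0.90 for Slc3a2, 1.08 for Slc7a1 and -1.11 for Slc1a5, and in eWAT 2.98 for Slc7a11 and 1.35 for Slc7a5. For restriction at room temperature they were, in liver, 7.46 for Slc7a11, 1.31 for Slc7a5, 1.55 for Slc3a2, 1.52 for Slc7a1, 0.74 for Slc38a2 and 0.91 for Slc6a9. In iBAT the difference was -1.0 for Slc1a4, and in eWAT 4.81 for Slc7a11.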

How the results depend on the processing

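The number of the 10 genes called moved by over 1.5 times in these cases. With DESeq2 and apeglm it was 1 in liver Ctrl_CE, 3 in liver MetR_RT and 0 for the iWAT interaction. With DESeq2 without shrinkage it was 1 in iBAT MetR_RT, 2 in iWAT Ctrl_CE and 2 in iWAT MetR_CE against MetR_RT. Fitting only the compared groups gave 1 in iBAT MetR_RT and 2 in iWAT Ctrl_CE, and edgeR's own expression filter 2 in iWAT Ctrl_CE. With all deposited libraries, 2 passed in eWAT MetR_CE, and Slc7a11 there turned from 1.01 to -3.71 (adjusted p = 0.0415). The cause was not tested. Grouping iBAT by the treatment label gave 5 in MetR_CE and 2 in MetR_CE against MetR_RT. Without the 4 iWAT libraries richest in muscle markers, 2 passed in Ctrl_CE and 1 in MetR_CE against Ctrl_CE, and without the 2 liver Ctrl_CE libraries richest in macrophage markers 1 passed in Ctrl_CE.

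With each library left out in turn, the number called in liver ran from 1 to 3 in Ctrl_CE, 3 to 6 in MetR_RT, 6 to 8 in MetR_CE, 0 to 1 in MetR_CE against MetR_RT and 2 to 3 in MetR_CE against Ctrl_CE. In iBAT it ran from 7 to 9 in Ctrl_CE, 0 to 1 in MetR_RT, 6 to 8 in MetR_CE and 4 to 6 in MetR_CE against MetR_RT. In iWAT it ran from 0 to 2 in Ctrl_CE, 1 to 2 in MetR_RT, 2 to 3 in MetR_CE, 0 to 2 for the interaction, 1 to 3 in MetR_CE against MetR_RT and 0 to 1 in MetR_CE against Ctrl_CE. In eWAT it did not move. The 20 differences between tissues became 18 or 19 without iWAT Ctrl_RT replicate 7 or liver Ctrl_CE replicate 4, and 17 with limma voom and the mouse as a block, and the pairs of tissues that differed at Ctrl_RT numbered 44 to 46.

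Replicate numbers named different mice in the groups of a tissue, and same-numbered libraries deviated together (r over 0.1) in 4 of 42 pairs in liver, 16 of 36 in iBAT, 18 of 39 in iWAT and 15 of 30 in eWAT, so that they were not treated as pairs. With a replicate block the number called was 0 in iWAT Ctrl_CE and 3, 6 and 7 in liver Ctrl_CE, MetR_RT and MetR_CE. For single members, 8464 alternative values stayed on their side of the threshold, 92 lost a call, 60 gained one and 1 was counted as reversed. These numbers do not tell whether values near 0 kept their sign. Few counts limit Slc7a11 in the control groups of liver, throughout iBAT and in MetR_RT of iWAT, and the 4 Ctrl_RT libraries limit eWAT.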

Other observations

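Over the 16 means by tissue and group, each centred on its tissue, the genes whose pattern was most like that of a member were sought among 10911 genes. The means share libraries and the correlations are a description. They were Arl14ep (Pearson's r = 0.949), Rpf1 (0.932) and Eif3a (0.923) for Slc3a2, Fip1l1 (0.929), Hnrnpa1 (0.929) and Arhgdia (0.915) for Slc7a11, Sf3b3 (0.919) and Adamts1 (0.889) for Slc7a5, and Tbcel (0.934), Erf (0.898) and Ccn2 (0.893) for Slc7a1. For Slc7a2 they were 2310022B05Rik (0.849), Lhpp (0.839) and Ap3b1 (0.827), for Slc38a4 Tnik (0.855), Rara (0.823) and Nup210 (0.809), and for Slc6a9 Smarcc1 (0.887), Clec2d (0.874) and Cul7 (0.871). The means of Slc38a2, Slc1a4 and Slc1a5 spanned under 1 on the log2 scale and none was sought. For Slc7a11 several of the means rest on few counts, such as 4 in liver Ctrl_RT and 1 in liver Ctrl_CE. Its mean in iWAT Ctrl_RT rests on replicate 7 at 7.42 CPM.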
